A study of Mus musculus with 24 samples.

Results

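Adult liver was compared at 48 h and at 0 h after gamma irradiation, on the 8 of the 24 arrays of the series whose titles give an age of 7 weeks and a time of 48 h or 0 h. The mice were B6C3F1, a first-generation cross of C57BL/6 and C3H mice, and the dose was 4 Gy of gamma rays from a caesium-137 source. Each time point held 2 males and 2 females (n = 4), with 1 array for the total RNA of each numbered mouse. The descriptions place the 0 h samples after exposure, whereas the treatment text also speaks of sham-exposed animals. The name 0 h therefore stands here only for the reference group. All 8 mice share the strain, the age and the array type, and the time of day at sampling was not given in the labels. Adult 24 h samples (n = 4) and samples of 1-week-old infants at 0 h and 48 h (n = 4 each) served for 2 further comparisons.

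Ionizing radiation breaks DNA and activates the transcription factor p53, which switches on genes for cell cycle arrest, apoptosis and its own feedback inhibition. The adult liver divides little, holds blood cells and resident macrophages besides hepatocytes, and carries a strong daily rhythm of gene expression driven by the circadian clock. Lymphocytes and dividing blood precursors are among the most radiation-sensitive cells of the body.

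Each array gave a processed intensity per probe, and a level is its log2 value minus the 75th percentile of the same array. That percentile lay between 171 and 336 intensity units on the 8 arrays. The share of probes well above background was 47.6% to 49.8% at 0 h and 41.6% to 45.8% at 48 h. All 0 h arrays and the 48 h females were on 1 slide, and the 48 h males were on another. The female comparison therefore lies within 1 slide. In males slide and time cannot be told apart, nor can slide and sex in the difference between the sexes. Each group of age, time and sex lay on 1 slide. A fit with slide as a fixed term therefore cannot tell a slide effect from the male change. Of the 23 hepatocyte markers tested, all were well above background on at least 1 of the 8 arrays, and their summed signal was 13.2 to 13.8 log2 units at 0 h and 13.5 to 13.9 at 48 h.

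A further property of the 0 h group touches several results. The 0 h samples of 1 sex differed among themselves, with 1626 genes over 1 log2 unit apart between the 0 h males and 1291 between the 0 h females. The corresponding numbers at 48 h were 1919 in males and 1068 in females. Male 1 at 0 h had higher levels of some p53 targets, acute phase genes and interferon-stimulated genes than male 2. Saa1, for example, stood at 10.5 in male 1 and 7.86 in male 2, and Isg15 at 5.53 and 3.99. Where leaving out this array ended the call given for a gene or moved the count of a list by over 1.5 times, this is stated beside it or, for some differences between the sexes, in the closing observations. Calls lost without other arrays or in other settings are given for a selection of genes only.

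Averaged over the sexes, 2948 of 23115 genes passed at an adjusted p under 0.05 in limma, 1585 higher at 48 h (6.86% of the genes tested) and 1363 lower (5.9%). Changes of at least 2-fold were fewer, with 58 higher and 374 lower. In males 2070 genes were higher (8.96%) and 1205 lower (5.21%), and in females 595 were higher (2.57%) and 1196 lower (5.17%). The change differed between the sexes for 2429 genes, of which 1716 lay above in males (7.42%) and 713 above in females (3.08%). Only 125 genes rose and 95 fell with each sex passing on its own. A further 164 genes rose in 1 sex and fell in the other, each passing.

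The split of higher and lower calls moved with the scaling. In the average comparison 53.8% of the calls lay above 0 h. That share was 42.5% with quantile normalization and 77.1% with scaling on the array median, which shifted the median change of all genes by 0.21 log2 units. In males the share was 63.2%, and 42.4% and 50.5% under those scalings. In females 33.2% of the calls were higher, and 60.6% after median scaling. Of the calls on the sex difference 70.6% lay above in males, and 59.8% and 44.2% under those scalings. All changes below are relative to the 75th percentile, and small changes of one sign carry this limit.

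The fit used all 24 arrays, so that the spread was estimated over 12 groups of 2. In a fit of the 8 adult arrays alone 19 genes passed, 1 higher and 18 lower. Among the genes named here Hbb-bt, Hbb-b2, Hbb-b1, Hba-a1, Hba-a2, Ms4a1, Fcmr, Ccr7, Arntl and Vmn2r10 passed there on average. Every other gene named below as passing on average lost its call in that fit.

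Gene lists were read against the shares of all genes that passed. For each count on the average change below, these shares are 6.86% of all genes higher and 5.9% lower. Of 34 lists, the p53 targets, interferon-stimulated genes, NRF2 targets and acute phase genes had the highest shares of members above 0 h. G2 and M phase genes, B cell markers, clock genes, red-cell markers and dendritic cell markers had the highest shares of members below it. Of 13 dendritic cell markers 3 fell and 1 rose, with a median of -0.36. After normexp background correction 0 fell, with a median of -0.06. With quantile normalization, with sex left out of the fit, or with slide as a fixed term or random block, 1 fell. Platelet (16 tested) and endothelial markers (23 tested) had none in either direction, with median changes of -0.15 and -0.26. The endothelial count rested on single arrays, with 8 lower (median -0.4) without male 1 at 48 h and 1 higher and 2 lower without male 1 at 0 h. At an unadjusted p under 0.05, 6797 of all genes passed.

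**Figure D1:**
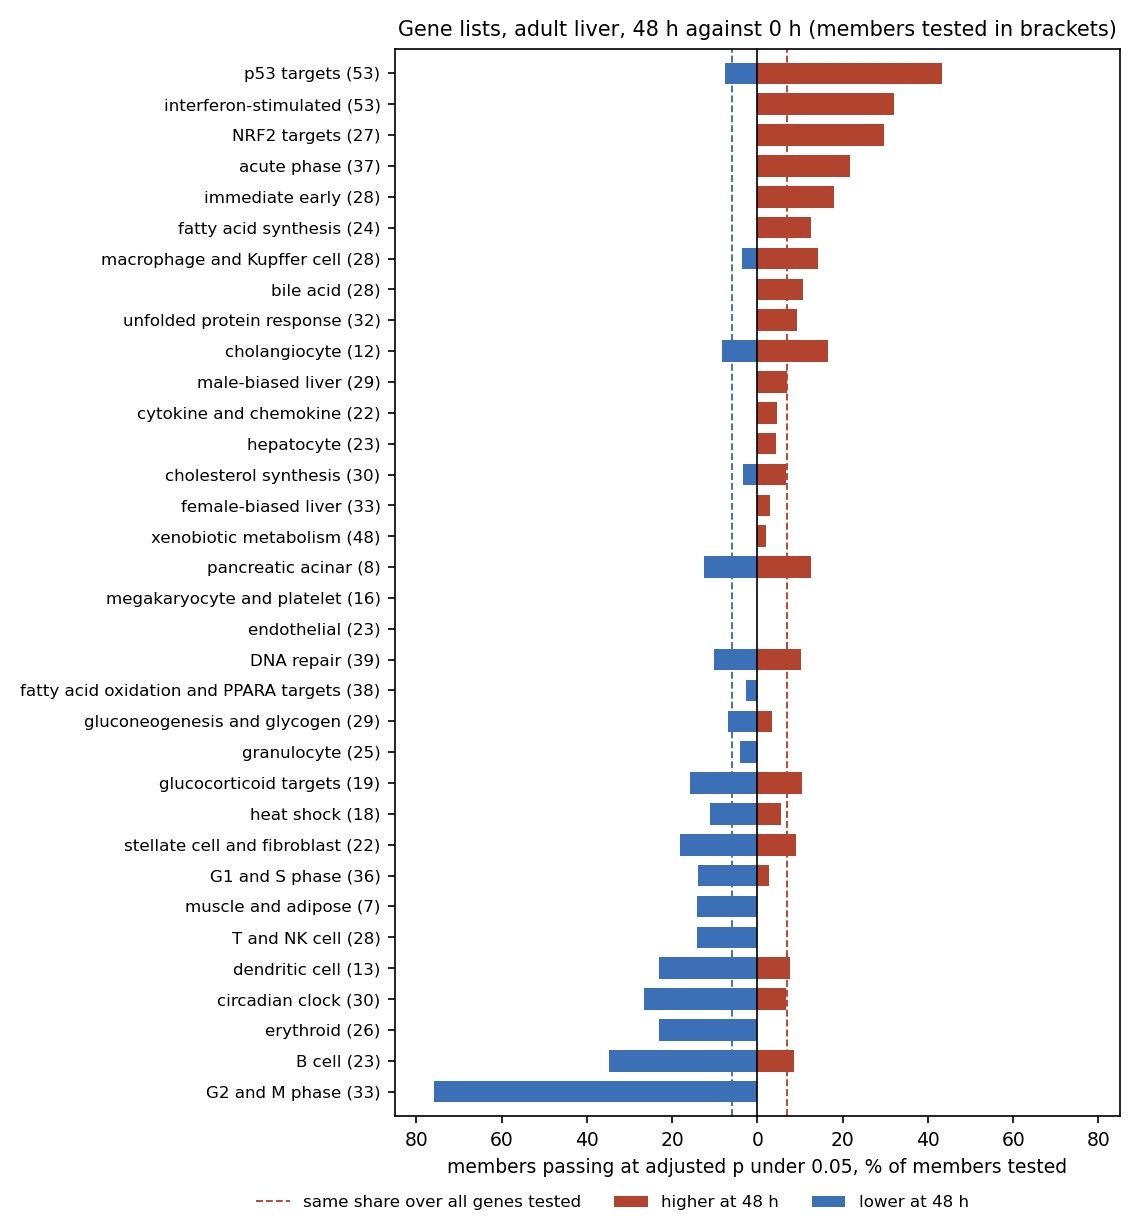
Share of the tested members of each gene list that passed at an adjusted p under 0.05 in adult liver at 48 h against 0 h (n = 4 each), in percent; bars to the right are members higher at 48 h, bars to the left members lower, and dashed lines the same shares over all genes (6.86% and 5.9%). The p53 targets reach furthest to the right with 23 of 53 members and the G2 and M phase genes furthest to the left with 25 of 33.

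Targets of p53 were higher at 48 h in both sexes. Of 53 tested targets 23 rose and 4 fell, with a median change of 0.33 log2 units against 0 over all genes and of 0.24 to 0.54 under the other scalings. In males 17 rose and 2 fell, and in females 17 rose and 2 fell. For 21 of the targets that rose the 48 h arrays lay above the 0 h arrays in each sex, a pattern seen in 5.23% of all genes. By role, 4 of 6 genes of feedback on p53 rose, as did 8 of 14 genes of apoptosis, 2 of 7 of cell cycle arrest, 7 of 16 of repair and other functions and 2 of 10 of metabolism and redox. With sex left out of the fit 13 targets rose, and with slide as a random block 15.

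Cdkn1a encodes p21, the inhibitor of cyclin-dependent kinases through which p53 stops the cell cycle. Its level was 2.24 and 0.41 in the 0 h males, -3.28 and -3.21 in the 0 h females, 2.75 and 2.25 in the 48 h males and 2.61 and 2.29 in the 48 h females. The 0 h females were far below the 0 h males, and the 48 h arrays of both sexes lay close together, at or above the level of male 1 at 0 h. On average Cdkn1a rose by 3.43 ± 0.32 (SE) on the log2 scale, 10.8-fold (adjusted p = 5.1e-05). The change was 1.17 ± 0.45 (adjusted p = 0.092) in males and 5.69 ± 0.45 (adjusted p = 9e-06) in females, and the difference of -4.52 ± 0.63 (adjusted p = 0.0013) passed. A second, dimmer probe for a transcript variant of Cdkn1a was well above background on 1 of 4 arrays at 0 h and 3 of 4 at 48 h and gave an average change of 0.82. Its male change exceeded its female change by 0.75, a sex difference of the opposite sign.

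Phlda3, a p53 target that restrains Akt signalling, was at 1.27 and -1.09 in the 0 h males, -0.59 and -0.77 in the 0 h females, 2.92 and 2.51 in the 48 h males and 2.97 and 2.89 in the 48 h females. Male 1 at 0 h was high, and no 48 h array fell to its level. Phlda3 rose by 3.12 ± 0.33 (SE) on the log2 scale, 8.68-fold (adjusted p = 0.00021), and both sexes passed, with changes of 2.62 in males and 3.61 in females. Ddias, an inhibitor of apoptosis after DNA damage, was at -0.98 and -2.06 in the 0 h males, -2.64 and -2.47 in the 0 h females, -0.3 and -0.23 in the 48 h males and 0.09 and -0.01 in the 48 h females. All its 48 h arrays lay above all 0 h arrays. It rose by 1.93 ± 0.16 (SE) on the log2 scale, 3.8-fold (adjusted p = 1.9e-05), and its male change minus its female change was -1.35 ± 0.32 (adjusted p = 0.018).

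Among the apoptosis genes, Tnfrsf10b encodes a death receptor for TRAIL. It stood at -1.27 and -2.61 in the 0 h males, -2.49 and -2.25 in the 0 h females, -0.63 and -0.82 in the 48 h males and -0.33 and -0.65 in the 48 h females, and rose by 1.54 ± 0.21 (SE) on the log2 scale, 2.92-fold (adjusted p = 0.00095). Aen, a nuclease of apoptotic cells, stood at 4.99 and 4.27 in the 0 h males, 4.4 and 4.23 in the 0 h females, 5.85 and 5.53 in the 48 h males and 5.6 and 5.53 in the 48 h females, and rose by 1.16 ± 0.12 (SE) on the log2 scale, 2.24-fold (adjusted p = 0.00021). For both genes each 48 h array exceeded every 0 h array, and each sex passed on its own.

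Bax opens the mitochondrial outer membrane in apoptosis. Its levels were 3.78 and 3.05 in males and 2.57 and 2.73 in females at 0 h, against 4.14 and 3.93 and 3.89 and 3.93 at 48 h, and it rose by 0.94 ± 0.12 (SE) on the log2 scale, 1.92-fold (adjusted p = 0.00066). Fas, a death receptor, rose by 0.39 on the log2 scale (adjusted p = 0.016). Its call was lost with slide as a fixed term, without female 1 at 0 h and without female 2 at 48 h. Of the BH3-only genes Bbc3 and Pmaip1, which set off apoptosis, neither passed, with changes of 0.32 (adjusted p = 0.27) and -0.17 (adjusted p = 0.56).

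Among the feedback genes, Mdm2, the ubiquitin ligase that degrades p53, was at 4.15 and 3.66 in the 0 h males, 3.42 and 3.44 in the 0 h females, 4.33 and 4.24 in the 48 h males and 4.4 and 4.46 in the 48 h females. It rose by 0.69 ± 0.09 (SE) on the log2 scale, 1.61-fold (adjusted p = 0.00084), with 0.38 (adjusted p = 0.06) in males and 1.0 (adjusted p = 0.00048) in females. Ccng1, cyclin G1, had levels of 1.87 and 1.49 in males and 1.91 and 1.52 in females at 0 h, against 2.82 and 2.57 and 2.76 and 2.88 at 48 h. Its 48 h arrays stood clear of the 0 h arrays in both sexes, and it rose by 1.06 ± 0.12 (SE) on the log2 scale, 2.08-fold (adjusted p = 0.00039). Zmat3, an RNA-binding target, rose by 0.49 on the log2 scale (adjusted p = 0.0031), by 0.51 in males and 0.47 in females.

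Further targets with roles in repair and detoxification moved the same way. Mgmt removes alkyl groups from guanine and had levels of 3.59 and 3.6 in males and 4.04 and 3.84 in females at 0 h, against 4.8 and 4.45 and 4.53 and 4.58 at 48 h. Mgmt rose by 0.82 ± 0.09 (SE) on the log2 scale, 1.77-fold (adjusted p = 4e-04). Polk, a polymerase that copies past damaged bases, rose by 0.87 on the log2 scale (adjusted p = 4e-04), and its second probe gave 0.84. Psrc1, a spindle protein, rose by 1.03 on the log2 scale (adjusted p = 0.002), with 1 of 4 arrays well above background at 0 h and 4 of 4 at 48 h. Ephx1, microsomal epoxide hydrolase, had levels of 8.32 and 8.31 in males and 7.78 and 7.88 in females at 0 h, against 9.06 and 8.69 and 8.72 and 8.74 at 48 h. It rose by 0.73 ± 0.1 (SE) on the log2 scale, 1.66-fold (adjusted p = 0.0011) and belongs to the NRF2 list as well. Gpx1, a glutathione peroxidase, rose by 0.33 on the log2 scale (adjusted p = 0.014), and Ddit4l, an inhibitor of mTOR signalling, rose by 1.15 on the log2 scale (adjusted p = 0.0017).

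For some targets the sexes gave different values. Gadd45a, a stress sensor of cell cycle arrest, rose by 0.79 on the log2 scale (adjusted p = 0.031), by 1.57 (adjusted p = 0.0067) in males against 0.0 (adjusted p = 1) in females. The call of Gadd45a was lost with slide as a fixed term, where the change was 0.03. Trp53inp1, which promotes p53-dependent death, changed by -0.13 (adjusted p = 0.75) in males and 1.24 (adjusted p = 0.0068) in females. Its average change of 0.56 (adjusted p = 0.045) was lost in 15 of 20 alternatives. Btg2, an antiproliferative gene, and Gdf15, a stress hormone, did not pass, at 0.5 (adjusted p = 0.1) and 0.98 (adjusted p = 0.096). Without male 1 at 0 h both passed, at 0.78 and 1.51.

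The 4 targets that fell were Ppm1d, Sfn, Cd80 and Ckap2. Ppm1d encodes a phosphatase that shuts the p53 response down, Sfn a 14-3-3 protein, Cd80 a costimulatory ligand and Ckap2 a spindle protein. Their changes were -0.27, -0.4, -0.7 and -0.97, with adjusted p of 0.047, 0.022, 0.017 and 0.047. None of the 4 passed without male 1 at 0 h, whereas 24 targets then rose.

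**Figure D2:**
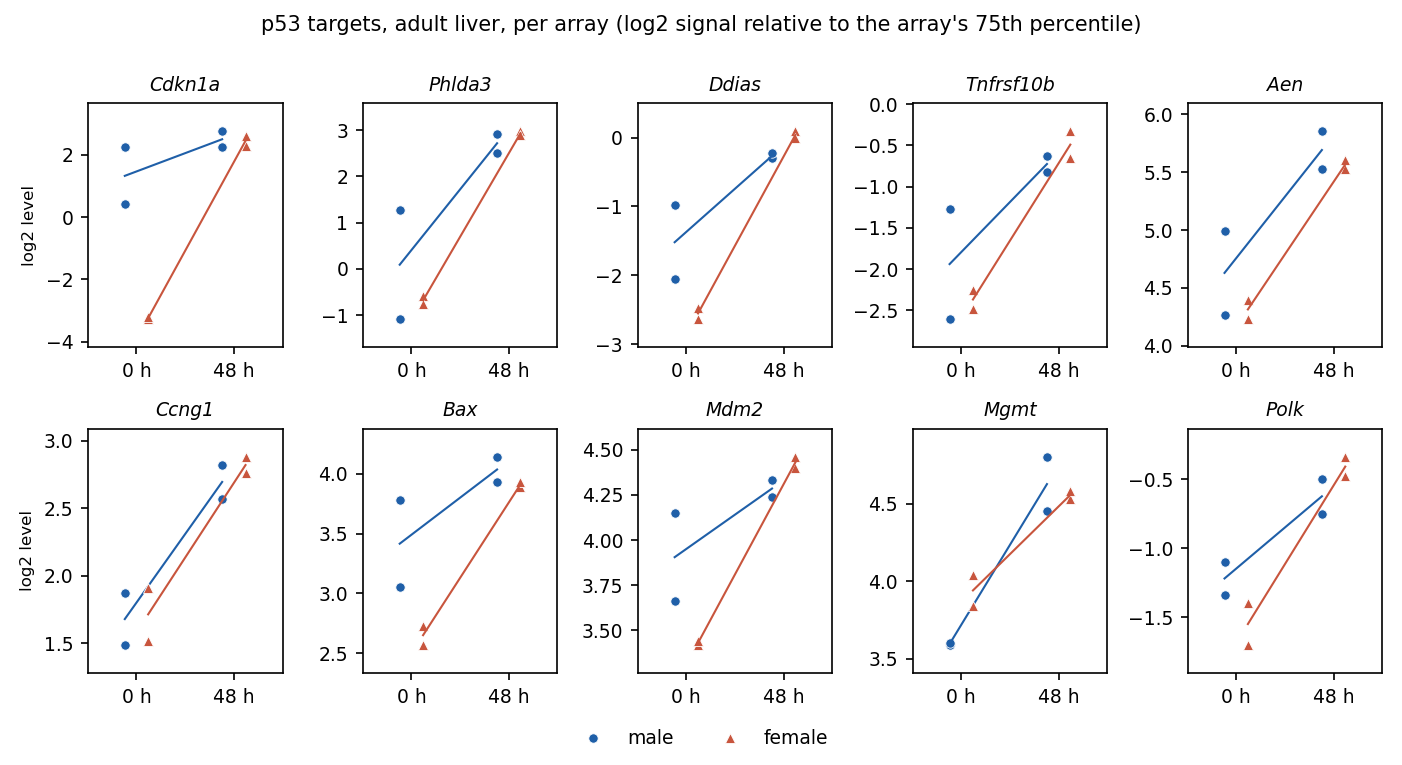
Levels of 10 p53 targets in adult liver (log2 signal relative to the array's 75th percentile) at 0 h and 48 h; each point is 1 array, circles males and triangles females, and lines join the means of each sex. Cdkn1a runs from -3.28 to 2.24 at 0 h and from 2.25 to 2.75 at 48 h, and male 1 at 0 h is the upper male point of Phlda3 at 1.27.

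Red-cell transcripts had the largest average falls among the genes named here. Hbb-bt, an adult beta globin gene, was at 5.95 and 6.73 in the 0 h males, 6.04 and 5.4 in the 0 h females, 0.09 and -0.3 in the 48 h males and -1.25 and -2.07 in the 48 h females. The 48 h arrays of both sexes lay far below every 0 h array. Hbb-bt fell by 6.91 ± 0.3 (SE) on the log2 scale, 121-fold (adjusted p = 3.4e-08). The changes were -6.45 in males and -7.38 in females. At 24 h its levels of 4.64 and 3.93 in males and 3.72 and 3.08 in females lay between those of 0 h and 48 h. The globin copies are nearly identical in sequence, so the division of signal between them is uncertain.

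The other globin genes did the same. Hba-a1, an alpha globin gene, stood at 6.87 and 7.66 in the 0 h males, 6.75 and 6.44 in the 0 h females, 3.32 and 2.93 in the 48 h males and 1.4 and 1.02 in the 48 h females, and it fell by 4.76 ± 0.22 (SE) on the log2 scale, 27.2-fold (adjusted p = 5.9e-08). Hba-a2 stood at 8.03 and 9.3 in the 0 h males, 8.47 and 8.3 in the 0 h females, 5.36 and 4.8 in the 48 h males and 3.42 and 2.99 in the 48 h females, and it fell by 4.39 ± 0.23 (SE) on the log2 scale, 20.9-fold (adjusted p = 1.4e-07). In both genes no 48 h array reached the lowest 0 h array. Hbb-b2 and Hbb-b1 fell by 5.51 and 5.36 on the log2 scale (adjusted p = 5.9e-08 and 3.6e-06), with 1 of the 48 h arrays of Hbb-b1 not well above background.

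Outside the globins few markers of the red-cell list passed. Of 26 tested members 6 fell and none rose, and the median change was -0.08, turning to 0.13 under median scaling. The members that fell were the 4 globin genes of the list, Slc4a1 and Ermap. Slc4a1, the anion exchanger of the red-cell membrane, fell by 1.47 on the log2 scale (adjusted p = 0.033). At 48 h it was well above background on 1 of 4 arrays. Its call was lost in 16 of 20 alternatives, among them the fit without male 1 at 0 h, and the gene was named after its values were seen. Ermap, another membrane protein of red cells, changed by -0.71 (adjusted p = 0.023), and its other probes, not well above background on any of the 8 arrays, gave -0.17 and 0.34. The call of Ermap was lost in 10 of 20 alternatives, and without male 1 at 0 h its change was -0.6 (adjusted p = 0.073). Alas2, which starts heme synthesis in red-cell precursors, was at 5.54 and 6.03 in the 0 h males, 3.49 and 3.9 in the 0 h females, 5.77 and 5.61 in the 48 h males and 3.37 and 2.66 in the 48 h females. Males lay above females at both times, and the times overlapped in males. The change of Alas2, -0.39 ± 0.19 (adjusted p = 0.18), did not pass. Of the 26 members 10 were on none of the 8 arrays well above background. The summed signal of the list was 9.57 to 10.6 log2 units at 0 h and 8.56 to 9.57 at 48 h.

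Other blood cells were read beside the red-cell list. Of 25 granulocyte markers 1 fell, Elane, a neutrophil elastase made in precursors, at -0.53 (adjusted p = 0.018). Elane did not pass without male 1 at 0 h (-0.46, adjusted p = 0.055), where 3 other markers were higher, and the median of the list turned from -0.06 to 0.12. The summed signal of that list ran from 7.44 to 9.54 at 0 h and from 7.24 to 9.31 at 48 h. No platelet marker passed, and their summed signal was 3.16 to 3.5 and 3.17 to 3.32. The part of residual blood in the globin result was not tested. In bulk tissue, fewer cells of a type and less RNA per cell cannot be told apart.

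More lymphocyte markers fell than rose at 48 h. Of 23 B cell markers 8 fell and 2 rose, with a median of -0.47 (-0.03 after normexp background correction). The B cell median was 0.04 in males, where 4 fell and none rose, and -0.47 in females, where 6 fell and 1 rose. Of 28 T and NK cell markers 4 fell and none rose, with a median of -0.28 (-0.04 after normexp correction). These counts stand beside 5.9% of all genes that fell and 6.86% that rose. The number that fell was 3 for B cells and 1 for T and NK cells with sex left out of the fit. With the filter on dim probes set on the 8 adult arrays, 3 B cell and 2 T and NK cell markers fell. The medians were then -0.17 and -0.18. After normexp correction 4 B cell and 2 T and NK cell markers fell. In the log2 values deposited by the authors 4 B cell markers fell. The summed signal of the B cell list was 2.94 to 3.36 at 0 h and 2.8 to 3.11 at 48 h.

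Ms4a1 encodes CD20 of mature B cells. It was at -4.42 and -4.24 in the 0 h males, -1.69 and -1.87 in the 0 h females, -4.91 and -5.14 in the 48 h males and -5.5 and -5.5 in the 48 h females. Only the 0 h females were well above background, and all other arrays lay far below them. Where no array of a group was well above background the fold is a bound. Such bounds set the brighter group against the dimmest signal well above background on each array of the other group. In females Ms4a1 was at least 3.32-fold lower at 48 h (adjusted p = 1.2e-07), and the male change was not measured. Fcmr, the receptor for immunoglobulin M, was at -5.1 and -4.98 in the 0 h males, -1.29 and -1.21 in the 0 h females, -5.04 and -5.25 in the 48 h males and -5.58 and -5.68 in the 48 h females. It too was well above background only in the 0 h females, and was at least 4.79-fold lower in 48 h females (adjusted p = 1.8e-08).

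Cd79b, a chain of the B cell receptor complex, was well above background on all 0 h arrays and on 2 of 4 at 48 h. Its levels were -1.9 and -1.52 in males and -0.11 and -0.29 in females at 0 h, against -2.5 and -2.81 and -2.66 and -3.37 at 48 h. Each sex passed, with -0.94 in males and -2.81 in females, and on average Cd79b fell by 1.88 ± 0.19 (SE) on the log2 scale, 3.67-fold (adjusted p = 0.00011). Of the 2 members that rose, Vpreb1, a surrogate light chain of B cell precursors, rose by 0.65 on the log2 scale (adjusted p = 0.0042).

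Ccr7 guides T cells and dendritic cells to lymph nodes. Its levels were -3.5 and -2.75 in the 0 h males, -1.63 and -1.5 in the 0 h females, -4.99 and -5.18 in the 48 h males and -5.52 and -5.63 in the 48 h females. All 0 h arrays were above all 48 h arrays, and none of the latter was well above background. Ccr7 was at least 1.99-fold lower at 48 h on average and at least 3.86-fold lower in females, with a fitted change of -2.98 ± 0.15 (adjusted p = 5.9e-08). Cd3d of the T cell receptor complex, named after its values were seen, fell by 0.81 on the log2 scale (adjusted p = 0.018). Nkg7, a T and NK cell member that also passed, had a change of -0.28, while another of its probes gave 0.13. The calls of Cd3d and Nkg7 were each lost in 10 of 20 alternatives.

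Among macrophage markers more rose than fell on average. Of 28 tested, 4 rose and 1 fell, with a median of 0.23, against 6.86% and 5.9% of all genes. In males none passed, and in females 1 rose and 1 fell, with medians of 0.28 and 0.21. C1qa, a complement subunit made by macrophages, rose by 0.58 on the log2 scale (adjusted p = 0.018), and Cd5l, a protein secreted by them, rose by 0.55 on the log2 scale (adjusted p = 0.028). Clec4f, a lectin of Kupffer cells, rose by 0.35 on the log2 scale (adjusted p = 0.034), and Spic, a factor of iron-recycling macrophages also named after its values were seen, rose by 0.41 on the log2 scale (adjusted p = 0.038). Lyz1, a lysozyme gene, fell by 0.55 on the log2 scale (adjusted p = 0.015). The calls of Cd5l and Clec4f were each lost in 11 of 20 alternatives, and that of Spic in 13. The number that rose was 10 without male 1 at 0 h and 0 without male 2 or female 2 at 0 h or without female 2 at 48 h. The summed signal of the list was 7.82 to 8.26 at 0 h and 8.02 to 8.46 at 48 h.

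**Figure D3:**
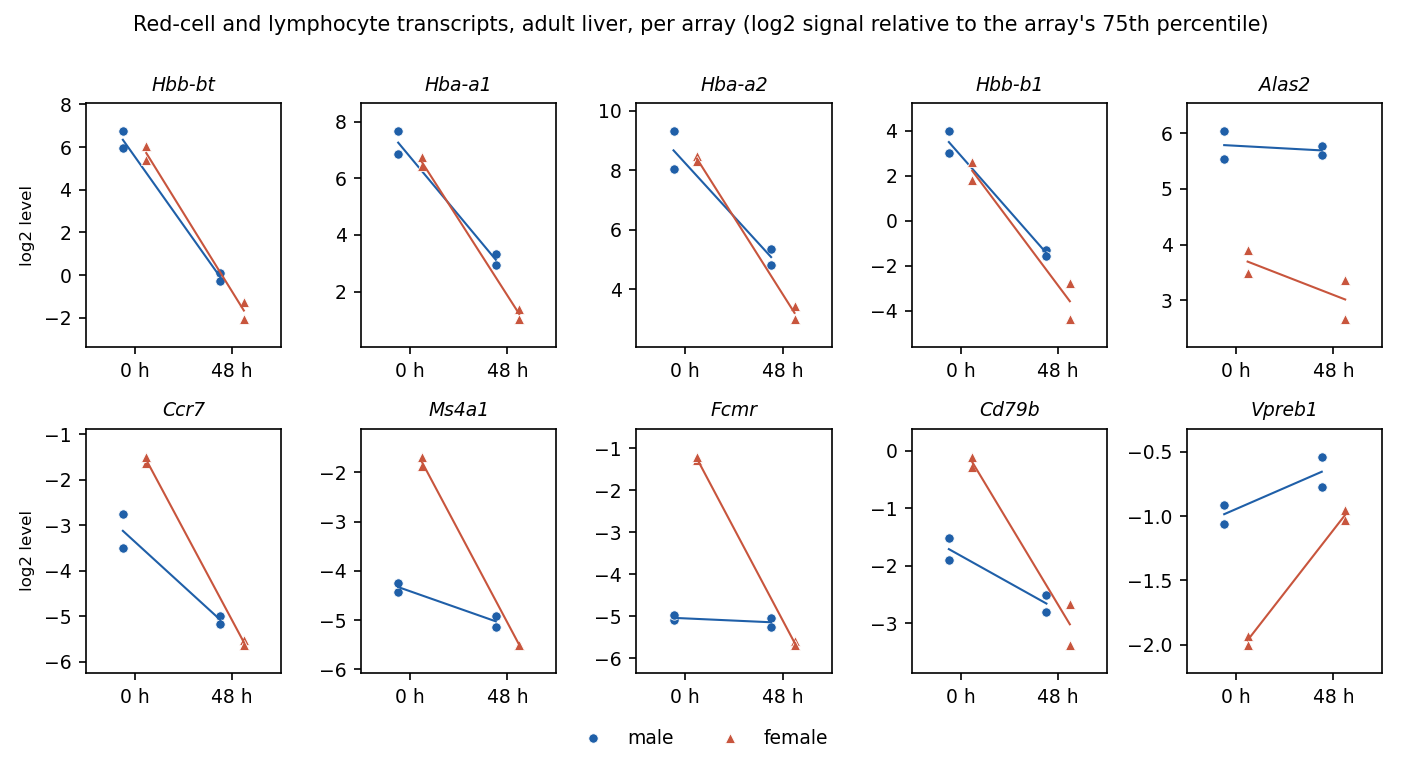
Levels of 10 red-cell and lymphocyte transcripts in adult liver (log2 signal relative to the array's 75th percentile) at 0 h and 48 h; circles are males, triangles females, each point is 1 array and lines join the means of each sex. Hbb-bt drops from 5.40 to 6.73 at 0 h to between -2.07 and 0.09 at 48 h, Alas2 stays separated by sex, and Ms4a1 and Fcmr are high only in the 0 h females.

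Genes of G2 and mitosis were lower at 48 h, and more of them passed in females than in males. Of 33 tested genes 25 fell and none rose. The median change was -1.01, and -0.38 to -0.95 under the other scalings and background correction. In females 26 fell, in males 2 fell and 1 rose, and for 16 genes the male change lay above the female change by the test of the difference. In 12 genes that fell the 48 h arrays lay below the 0 h arrays in each sex, against 3.43% of all genes. With sex left out of the fit 14 of them fell. On none of the 8 arrays were 7 of the 33 genes well above background. Others were not well above background at 48 h, as given below, so the size of their fall is not measured. In males slide and time cannot be told apart. Over the alternatives the fitted sex difference ran from 0.5 to 3.95 for Top2a and from 0.83 to 3.07 for Cenpe. It ran from 0.91 to 4.27 for Ccnb1 and from 2.2 to 3.88 for Cdc20.

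Prc1 bundles the microtubules of the dividing spindle. It was at -1.86 and -2.87 in the 0 h males, -0.8 and -0.23 in the 0 h females, -4.7 and -3.16 in the 48 h males and -5.1 and -3.91 in the 48 h females. The 0 h females were highest, and all 48 h arrays were below the lowest 0 h array and not well above background. Prc1 was at least 3.7-fold lower on average, 1.72-fold in males and 7.98-fold in females, all as lower bounds, with a fitted change of -2.77 ± 0.39 (adjusted p = 0.0012). The fitted changes were -1.56 (adjusted p = 0.075) in males and -3.99 (adjusted p = 0.00089) in females. Cenpe, a motor protein of the kinetochore, was at -1.48 and -2.66 in the 0 h males, -0.79 and -0.42 in the 0 h females, -3.03 and -3.63 in the 48 h males and -3.57 and -4.93 in the 48 h females. No 48 h array of it was well above background, and it was at least 3.93-fold lower.

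The cyclins of division fell as well. Ccnb1, cyclin B1, was at -1.01 and -2.64 in the 0 h males, -1.33 and -0.92 in the 0 h females, -2.54 and -2.82 in the 48 h males and -5.26 and -5.61 in the 48 h females. Its female arrays separated completely, while the male arrays overlapped. In males, where all arrays were well above background, its change was -0.86 (adjusted p = 0.13). In females, where no 48 h array was, it was at least 5.22-fold lower (adjusted p = 1.7e-05). The fitted average passed (adjusted p = 0.00011), and 2 dimmer probes gave average changes of -0.59 and -0.27. Ccnb2, cyclin B2, was well above background on all 8 arrays, at -0.05 and -0.76 in the 0 h males, 0.85 and 0.79 in the 0 h females, -1.68 and -0.84 in the 48 h males and -1.47 and -1.28 in the 48 h females. Ccnb2 fell by 1.52 ± 0.2 (SE) on the log2 scale, 2.88-fold (adjusted p = 0.00095), with changes of -2.19 (adjusted p = 0.00053) in females and -0.85 (adjusted p = 0.06) in males. Ccna2, cyclin A2, had a change of -2.56 (adjusted p = 0.0035), with 1 of 4 arrays well above background at 48 h.

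Mki67 encodes the Ki-67 antigen of cycling cells. Its levels were -0.88 and -1.27 in the 0 h males, -0.03 and 0.25 in the 0 h females, -3.09 and -2.11 in the 48 h males and -2.46 and -2.33 in the 48 h females. Both sexes separated without overlap, and Mki67 fell by 2.02 ± 0.25 (SE) on the log2 scale, 4.05-fold (adjusted p = 0.00064). Cdk1, the kinase that starts mitosis, had levels of -2.49 and -3.19 in males and -1.96 and -1.25 in females at 0 h, against -4.78 and -3.25 and -3.18 and -3.35 at 48 h, and it fell by 1.42 ± 0.27 (SE) on the log2 scale, 2.67-fold (adjusted p = 0.0059). Cdc20, an activator of the anaphase-promoting complex, had levels of 0.15 and -1.26 in males and 1.42 and 1.61 in females at 0 h, against -1.32 and -0.33 and -1.95 and -1.92 at 48 h. It fell in females by 3.45 on the log2 scale (adjusted p = 1e-04), while its male change was -0.27 (adjusted p = 0.64), and the difference passed (adjusted p = 0.0028). Top2a, the topoisomerase of chromosome separation, was well above background only in the 0 h females and was at least 1.49-fold lower in 48 h females.

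The genes of G1 and S phase moved less. Of 36 tested 5 fell and 1 rose, with a median of -0.16 (0.01 without male 1 at 0 h and 0.05 under median scaling). The number that fell was 1 without female 2 at 0 h, 3 without female 1 at 0 h and 2 without female 2 at 48 h. In females 7 fell and in males 1 fell and 4 rose. The member that rose was Ccnd1, cyclin D1 of G1 entry, at 3.08 and 1.51 in the 0 h males, 4.01 and 4.46 in the 0 h females, 4.5 and 4.51 in the 48 h males and 4.88 and 4.98 in the 48 h females. Ccnd1 rose by 1.45 ± 0.23 (SE) on the log2 scale, 2.74-fold (adjusted p = 0.0026), by 2.21 (adjusted p = 0.0021) in males and 0.69 (adjusted p = 0.22) in females. Its call was lost with slide as a fixed term, at 0.97. Ccne1, cyclin E1, moved apart in the sexes, with 1.0 (adjusted p = 0.062) in males and -2.48 (adjusted p = 0.00076) in females. The difference of 3.48 ± 0.47 (adjusted p = 0.0012) passed.

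Promoters of the mitotic genes were searched because these genes moved together. The cell cycle homology region, whose core is TTTGAA, is a known element of such promoters. In windows from 250 bases before to 50 bases after the start site, on both strands, 21 of 28 list members with a RefSeq window (75%) held it, against 15.1% of 11871 tested genes with a window. Of the 21 members that fell and have a window, 15 held it. The 250 bases before the start are shown for 3 of them, from RefSeq on GRCm38.p6 and 5′ to 3′ along the gene, with TTTGAA in capitals. A match is a description of the sequence and not evidence of a working site.
Cdk1 (chr10:69352913-69353162, minus strand): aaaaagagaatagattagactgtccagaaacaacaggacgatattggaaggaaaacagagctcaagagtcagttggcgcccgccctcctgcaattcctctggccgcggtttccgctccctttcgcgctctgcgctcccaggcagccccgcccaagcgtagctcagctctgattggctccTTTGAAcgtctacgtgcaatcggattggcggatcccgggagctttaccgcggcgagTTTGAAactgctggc
Ccnb2 (chr9:70421555-70421804, minus strand): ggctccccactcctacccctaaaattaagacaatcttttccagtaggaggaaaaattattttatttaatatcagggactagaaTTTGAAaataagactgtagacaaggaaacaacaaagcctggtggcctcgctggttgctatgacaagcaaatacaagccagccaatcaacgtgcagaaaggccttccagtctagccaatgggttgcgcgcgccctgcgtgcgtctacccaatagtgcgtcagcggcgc
Mki67 (chr7:135716380-135716629, minus strand): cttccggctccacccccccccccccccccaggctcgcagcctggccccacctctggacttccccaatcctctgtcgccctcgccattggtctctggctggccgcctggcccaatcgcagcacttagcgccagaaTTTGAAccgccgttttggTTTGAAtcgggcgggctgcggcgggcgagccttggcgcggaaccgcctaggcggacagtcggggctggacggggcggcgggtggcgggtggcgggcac

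**Figure D4:**
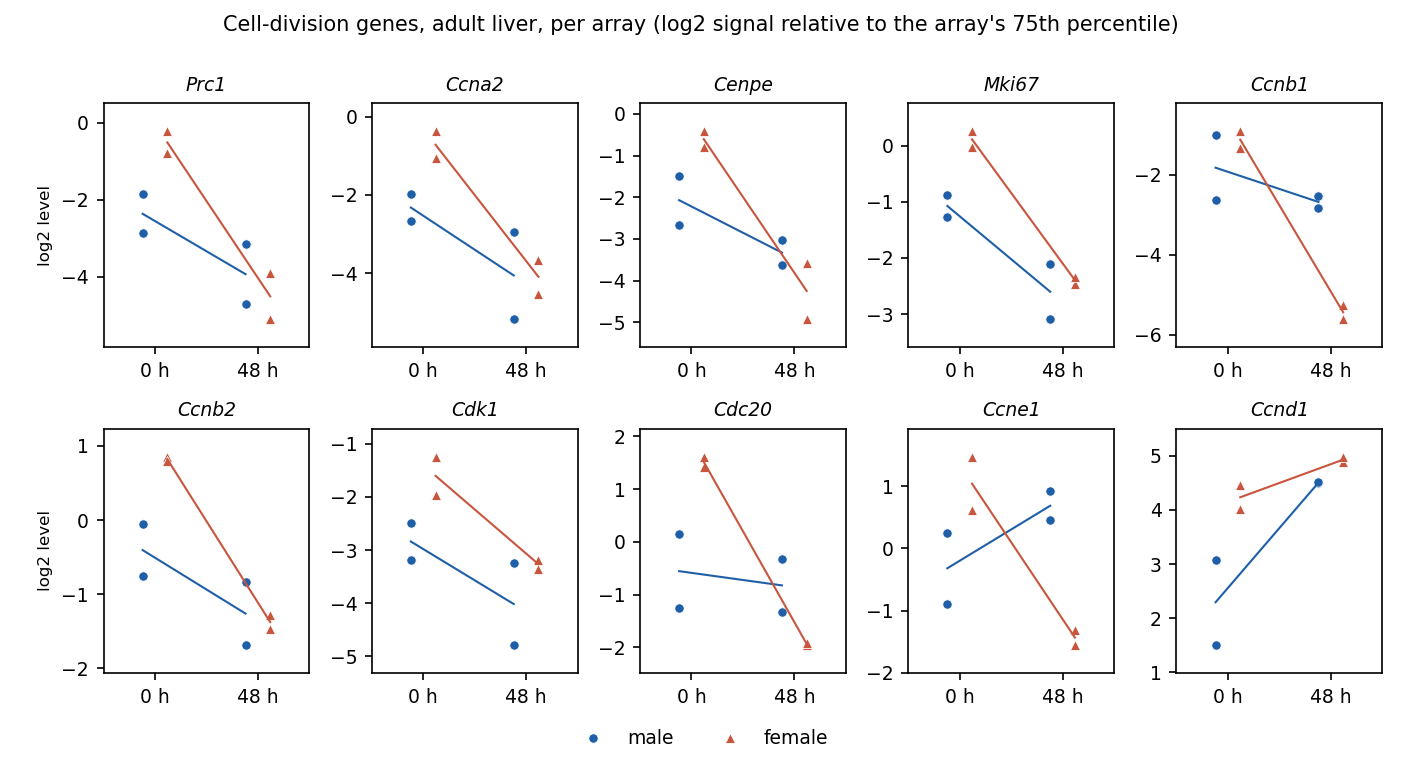
Levels of 10 cell-division genes in adult liver (log2 signal relative to the array's 75th percentile) at 0 h and 48 h; circles are males, triangles females, each point is 1 array and lines join the means of each sex. For Mki67 and Ccnb2 the 0 h females are the highest points, Ccne1 runs in opposite directions in the sexes, and Ccnd1 alone is higher at 48 h in both.

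Of 39 DNA repair genes 4 rose and 4 fell on average, against 6.86% and 5.9% of all genes, with a median of -0.01. In males 8 rose and 2 fell (8.96% and 5.21% of all genes), and in females none rose and 9 fell (2.57% and 5.17%). By the test of the difference the male change lay above for 8 (7.42% of all genes) and below for none (3.08%). On average 2 rose and 2 fell without male 1 at 0 h. Xrcc5, the Ku80 subunit of end joining, had levels of 2.16 and 2.17 in males and 2.19 and 1.98 in females at 0 h, against 2.76 and 2.66 and 2.43 and 2.39 at 48 h. It rose by 0.44 ± 0.07 (SE) on the log2 scale, 1.35-fold (adjusted p = 0.0021). Prkdc, the kinase that Ku recruits, rose by 0.27 on the log2 scale (adjusted p = 0.032). Lig1, the ligase of replication and excision repair, fell by 0.42 on the log2 scale (adjusted p = 0.023). Prkdc and Lig1 did not pass without male 1 at 0 h.

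Many interferon-stimulated genes were higher at 48 h than at 0 h. Of 53 tested 17 rose and none fell, with a median of 0.39 and of 0.3 to 0.6 under the other scalings. The number that rose moved with single arrays and was 26 without male 1 at 0 h and 6 to 11 without any 1 of the other 7 arrays. It was 1 with sex left out of the fit, 7 with quantile normalization, 7 without a filter on dim probes and 8 with slide as a random block. By role, 6 of 10 genes of antigen presentation, 5 of 22 antiviral effectors, 3 of 11 sensing and signalling genes and 3 of 10 interferon-inducible GTPases rose.

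Bst2, tetherin, holds budding virus at the cell surface. It stood at 6.33 and 6.18 in the 0 h males, 6.08 and 6.04 in the 0 h females, 7.04 and 6.98 in the 48 h males and 6.66 and 6.74 in the 48 h females. All 48 h arrays were above all 0 h arrays, and Bst2 rose by 0.7 ± 0.08 (SE) on the log2 scale, 1.62-fold (adjusted p = 4e-04). Irf7, a master regulator of interferon genes, stood at 1.61 and 0.62 in the 0 h males, 0.25 and 0.16 in the 0 h females, 1.62 and 2.03 in the 48 h males and 1.21 and 1.66 in the 48 h females, and it rose by 0.97 ± 0.2 (SE) on the log2 scale, 1.96-fold (adjusted p = 0.0079). In each sex its 48 h arrays exceeded its 0 h arrays, although female 1 at 48 h stood below male 1 at 0 h.

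Ifi47, an interferon-inducible GTPase, rose by 0.8 on the log2 scale (adjusted p = 0.002), and Psmb9, a subunit of the immunoproteasome, rose by 0.49 on the log2 scale (adjusted p = 0.01). Tap1, the peptide transporter of antigen presentation and also listed as a p53 target, rose by 0.62 on the log2 scale (adjusted p = 0.031). The call of Tap1 was lost in 11 of 20 alternatives. Cmpk2, a mitochondrial nucleotide kinase, changed by 0.05 (adjusted p = 0.91) in males and 1.24 (adjusted p = 0.009) in females. Isg15, a ubiquitin-like modifier, was at 5.53 and 3.99 in the 0 h males, 3.75 and 3.71 in the 0 h females, 5.17 and 4.89 in the 48 h males and 4.79 and 4.72 in the 48 h females. Male 1 at 0 h exceeded every 48 h array, and the change of 0.65 ± 0.24 (adjusted p = 0.093) did not pass. Without that array the change of Isg15 was 1.03 (adjusted p = 0.0014).

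The interferon-stimulated response element was searched in the same windows, by its core GAAANNGAA, where N is any base. On both strands 23 of 42 list members with a window (54.8%) held it, against 8.87% of tested genes with a window. Of the 16 members that rose and have a window, 5 held it. The 250 bases before the start of a member that rose and of a member with its highest levels at 24 h are shown, from RefSeq on GRCm38.p6. Capitals mark the matches, which overlap one another.
Bst2 (chr8:71537473-71537722, minus strand): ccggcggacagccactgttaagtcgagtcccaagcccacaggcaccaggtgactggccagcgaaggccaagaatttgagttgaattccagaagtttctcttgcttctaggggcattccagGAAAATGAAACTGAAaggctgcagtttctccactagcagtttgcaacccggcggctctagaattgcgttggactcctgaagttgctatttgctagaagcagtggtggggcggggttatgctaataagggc
Isg15 (chr4:156200819-156201068, minus strand): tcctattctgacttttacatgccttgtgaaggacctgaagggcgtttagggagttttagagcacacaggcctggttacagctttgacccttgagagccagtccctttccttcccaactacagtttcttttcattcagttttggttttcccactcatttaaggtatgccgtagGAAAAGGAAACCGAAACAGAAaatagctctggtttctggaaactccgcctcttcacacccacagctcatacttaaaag

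Acute phase proteins are secreted by the liver in inflammation. Saa1, serum amyloid A1, stood at 10.5 and 7.86 in the 0 h males, 4.91 and 4.97 in the 0 h females, 9.39 and 10.29 in the 48 h males and 9.65 and 9.52 in the 48 h females. The 0 h females were far below every other array, and male 1 at 0 h was the highest of all. Saa1 rose by 2.65 ± 0.39 (SE) on the log2 scale, 6.28-fold (adjusted p = 0.0016), with 0.66 (adjusted p = 0.44) in males and 4.64 (adjusted p = 0.00031) in females, and the difference was -3.98 ± 0.78 (adjusted p = 0.0079). Saa2 had levels of 9.94 and 7.62 in males and 4.84 and 4.79 in females at 0 h, against 8.82 and 9.82 and 8.87 and 8.84 at 48 h, and it rose by 2.29 on the log2 scale (adjusted p = 0.0031).

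Of 37 acute phase genes 8 rose and none fell, with a median of 0.43. That number was 20 without male 1 at 0 h, 14 without male 1 at 48 h and 2 to 4 without any 1 of the other 6 arrays. Socs3, the feedback inhibitor of interleukin-6 signalling, had levels of 2.59 and 0.91 in males and 1.59 and 1.72 in females at 0 h, against 3.39 and 3.76 and 3.42 and 2.08 at 48 h, and it rose by 1.46 ± 0.33 (SE) on the log2 scale, 2.75-fold (adjusted p = 0.014). Hamp, hepcidin, the hormone that limits iron uptake, was at 7.86 and 7.45 in the 0 h males, 8.21 and 7.46 in the 0 h females, 8.84 and 8.86 in the 48 h males and 8.89 and 8.85 in the 48 h females. The 48 h arrays of Hamp were tightly grouped above all 0 h arrays, and it rose by 1.11 ± 0.28 (SE) on the log2 scale, 2.17-fold (adjusted p = 0.021). Its call was lost in 8 of 20 alternatives. Of 22 cytokines and chemokines 1 rose and none fell, and 2 rose without male 1 at 0 h.

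The change of many clock genes differed between the sexes. On average 2 of 30 tested rose and 8 fell, against 6.86% and 5.9% of all genes. In females 4 rose and 12 fell (2.57% and 5.17% of all genes), and in males 3 rose and 2 fell (8.96% and 5.21%). The difference between the sexes passed for 16, with 12 above in males and 4 above in females (7.42% and 3.08% of all genes). The median was -0.15 on average, turning to 0.06 under median scaling, and it was 0.29 in males and -0.6 in females. The 8 that fell on average were 3 without male 1 at 0 h, 3 without female 1 at 0 h and 0 with slide as a random block. The 0 h group was itself split by sex in these genes, as the values below show, and the hour at which each mouse was sampled is not known here. Its part in these results was not tested.

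In the positive limb, Arntl encodes BMAL1, the partner of CLOCK in driving the rhythm. Its levels were 1.83 and 1.84 in the 0 h males, -0.84 and -0.52 in the 0 h females, 1.27 and 1.45 in the 48 h males and 2.34 and 2.14 in the 48 h females. The 0 h females lay well below all other arrays. The female change was 2.92 ± 0.19 (adjusted p = 9.2e-07), the male change -0.48 ± 0.19 (adjusted p = 0.097) and the difference -3.4 ± 0.26 (adjusted p = 2.9e-05). Clock itself changed by 0.44 (adjusted p = 0.049) in females and -0.07 (adjusted p = 0.75) in males.

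Dbp is a transcription factor and a direct output of the clock. It stood at 2.85 and 2.06 in the 0 h males, 7.29 and 7.16 in the 0 h females, 4.81 and 4.67 in the 48 h males and 2.24 and 3.49 in the 48 h females. The 0 h females were far above all other arrays, and the 48 h males were above the 0 h males. Dbp rose in males by 2.29 (adjusted p = 0.0033) and fell in females by 4.36 on the log2 scale (adjusted p = 2.5e-05). The male change exceeded the female change by 6.65 ± 0.54 (adjusted p = 3.7e-05), and a second probe gave 6.73.

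Tef, a relative of Dbp, stood at 4.87 and 4.92 in the 0 h males, 6.78 and 6.78 in the 0 h females, 5.74 and 5.55 in the 48 h males and 5.18 and 5.42 in the 48 h females. The arrays of each pair lay close together, and the sexes moved in opposite directions. The male change was 0.75 ± 0.14 (adjusted p = 0.0062), the female change -1.48 ± 0.14 (adjusted p = 6.5e-05) and the difference 2.23 ± 0.2 (adjusted p = 6.7e-05). On average Tef changed by -0.36 (adjusted p = 0.033). That call was lost in 11 of 20 alternatives, among them the fit without male 1 at 0 h. Nfil3, a repressor that competes with Dbp and Tef for the same sites, rose by 1.33 on the log2 scale (adjusted p = 0.0029) in females and changed by 0.21 (adjusted p = 0.54) in males.

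Among the genes of the negative limb, Per2 changed by -2.46 (adjusted p = 0.0029) in females and 0.67 (adjusted p = 0.27) in males, and Cry2 by -0.96 (adjusted p = 0.00031) and 0.38 (adjusted p = 0.04). Both encode repressors of BMAL1 and CLOCK, and the sex difference passed for both (adjusted p = 0.0056 and 0.00059). Per3 was well above background only in the 0 h females, where it was at least 4.29-fold higher than in the 48 h females. Nr1d1 and Nr1d2 encode the REV-ERB repressors of Arntl. Nr1d1 had levels of 1.41 and 1.71 in males and 2.83 and 2.89 in females at 0 h, against 2.59 and 2.64 and 0.59 and 1.9 at 48 h, with a sex difference of 2.66 ± 0.64 (adjusted p = 0.02), and for Nr1d2 that difference was 1.74 ± 0.36 (adjusted p = 0.0096). Without male 1 at 0 h the sex differences of Nr1d1 and Nfil3 did not pass. Cry1 was well above background on none of the 8 arrays.

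Per1 and Noct were lower in both sexes. Per1, a repressor also induced by glucocorticoids, had levels of 1.53 and 1.98 in the 0 h males, 3.15 and 2.34 in the 0 h females, 1.23 and 0.63 in the 48 h males and -0.33 and 0.99 in the 48 h females. Its arrays did not overlap in either sex, and it fell by 1.62 ± 0.47 (SE) on the log2 scale, 3.08-fold (adjusted p = 0.037). The call was lost in 13 of 20 alternatives. Noct, nocturnin, a rhythmic liver gene, stood at 2.64 and 2.65 in the 0 h males, 2.84 and 2.19 in the 0 h females, 0.78 and 1.16 in the 48 h males and 0.92 and 0.99 in the 48 h females. All 48 h arrays were below all 0 h arrays, and Noct fell by 1.62 ± 0.43 (SE) on the log2 scale, 3.07-fold (adjusted p = 0.026). Without male 1 at 0 h neither passed (adjusted p = 0.057 and 0.055).

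The output genes Wee1 and Usp2 were also high in the 0 h females. Wee1, a kinase that holds back mitosis and is rhythmic in liver, stood at -2.05 and -2.19 in the 0 h males, 1.39 and 0.89 in the 0 h females, -1.02 and -1.76 in the 48 h males and -2.0 and -1.54 in the 48 h females. The 0 h females stood apart above all other arrays. The female change was -2.91 ± 0.24 (adjusted p = 1.3e-05) and the sex difference 3.64 ± 0.34 (adjusted p = 8.3e-05). Usp2, a rhythmic deubiquitinase, stood at -0.86 and -1.29 in the 0 h males, 3.57 and 2.86 in the 0 h females, 0.19 and -0.1 in the 48 h males and -1.24 and -1.44 in the 48 h females, again with the 0 h females apart. Its female change was -4.55 ± 0.49 (adjusted p = 0.00014), its male change 1.12 ± 0.49 (adjusted p = 0.14) and the difference 5.67 ± 0.7 (adjusted p = 0.00062).

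Tsc22d3 encodes GILZ, a target of the glucocorticoid receptor. It stood at 5.65 and 5.91 in the 0 h males, 4.16 and 4.37 in the 0 h females, 4.32 and 4.41 in the 48 h males and 4.36 and 4.36 in the 48 h females. Here the 0 h males were the group apart, and all 48 h arrays lay near the level of the 0 h females. Tsc22d3 fell in males by 1.42 on the log2 scale (adjusted p = 0.00035), and its female change was 0.1 (adjusted p = 0.77). On average the change was -0.66 (adjusted p = 0.0033), and with slide as a fixed term it was 0.24 and did not pass. Of 19 glucocorticoid targets 2 rose and 3 fell, against 6.86% and 5.9% of all genes.

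Motifs of the clock were searched in the same windows. The E-box CACGTG, to which BMAL1 and CLOCK bind, was in 6 of 24 list members with a window (25%), against 10.9% of tested genes. The D-box TTATGTAA, a site of Dbp, Tef and Nfil3, was in 1 of 24 (4.17%), against 0.851%. Of the 7 members that fell on average and have a window, 2 held an E-box and none a D-box. These shares were counted on both strands. The 250 bases before the start are shown for Per1 and Tef, which fell on average and hold an E-box. Tef fell in females only and rose in males. Per3, the member with a D-box, is shown as well. The sequences are from RefSeq on GRCm38.p6, with the motif in capitals.
Per1, E-box (chr11:69098699-69098948, plus strand): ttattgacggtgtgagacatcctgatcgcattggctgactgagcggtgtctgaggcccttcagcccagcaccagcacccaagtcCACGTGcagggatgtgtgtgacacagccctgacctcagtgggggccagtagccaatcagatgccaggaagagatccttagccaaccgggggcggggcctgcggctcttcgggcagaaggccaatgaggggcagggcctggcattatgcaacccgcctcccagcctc
Tef, E-box (chr15:81802423-81802672, plus strand): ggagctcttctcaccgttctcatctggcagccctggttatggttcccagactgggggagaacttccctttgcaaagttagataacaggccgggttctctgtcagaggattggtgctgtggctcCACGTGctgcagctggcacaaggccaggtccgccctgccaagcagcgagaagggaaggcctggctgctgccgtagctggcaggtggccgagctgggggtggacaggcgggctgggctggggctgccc
Per3, D-box (chr4:151044666-151044915, minus strand): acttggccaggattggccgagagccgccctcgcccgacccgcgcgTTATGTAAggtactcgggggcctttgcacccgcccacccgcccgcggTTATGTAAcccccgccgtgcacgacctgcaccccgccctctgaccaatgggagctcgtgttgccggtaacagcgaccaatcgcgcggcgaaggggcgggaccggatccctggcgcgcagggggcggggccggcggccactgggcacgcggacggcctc

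**Figure D5:**
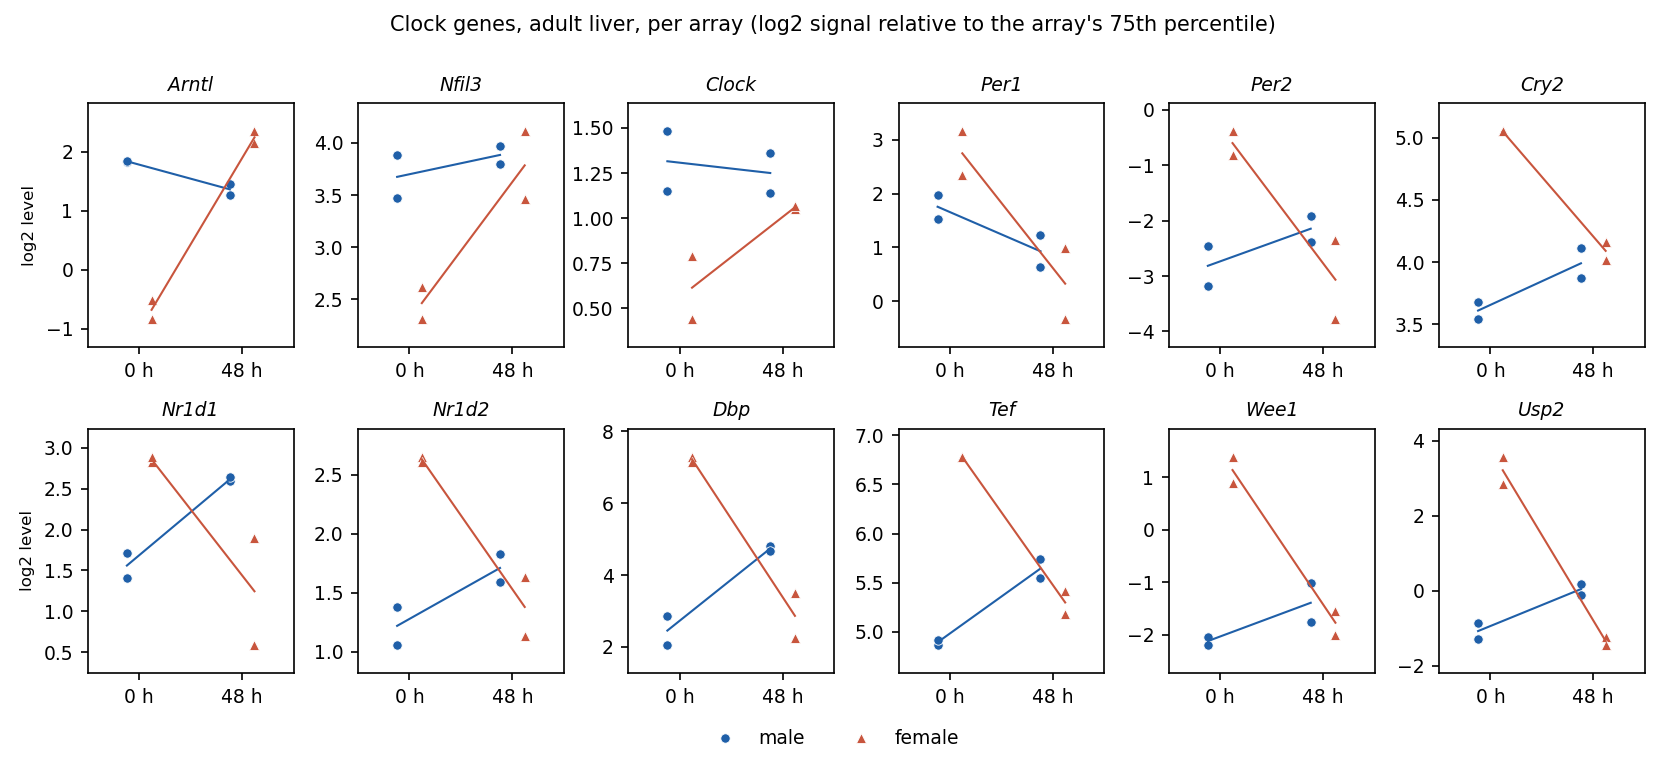
Levels of 12 clock genes in adult liver (log2 signal relative to the array's 75th percentile) at 0 h and 48 h; circles are males, triangles females, each point is 1 array and lines join the means of each sex. For Dbp, Tef, Wee1 and Usp2 the 0 h females are the highest points and the lines of the sexes cross, and for Arntl the 0 h females, at -0.84 and -0.52, are the lowest.

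Some metabolic genes also differed between the sexes in their change. Cyp7a1, the rate-limiting enzyme of bile acid synthesis, was at 1.85 and 2.33 in the 0 h males, 5.94 and 4.62 in the 0 h females, 3.78 and 3.84 in the 48 h males and 2.53 and 4.22 in the 48 h females. It changed by 1.72 (adjusted p = 0.058) in males and -1.9 (adjusted p = 0.057) in females, and the difference of 3.62 ± 0.8 (adjusted p = 0.014) passed. Gys2, the liver glycogen synthase, was at 6.0 and 6.22 in the 0 h males, 7.38 and 7.55 in the 0 h females, 6.46 and 6.05 in the 48 h males and 5.95 and 6.27 in the 48 h females, with the 0 h females above all other arrays. Its female change was -1.36 (adjusted p = 0.00044), its male change 0.15 (adjusted p = 0.59) and the difference 1.5 ± 0.24 (adjusted p = 0.003). G6pc, the last enzyme of glucose release, changed by -1.71 (adjusted p = 0.015) in males and 0.84 (adjusted p = 0.22) in females, with a difference of -2.55 (adjusted p = 0.014). Slc25a30, a mitochondrial carrier, had levels of -0.54 and 1.04 in males and -2.24 and -2.3 in females at 0 h, against -1.16 and -0.62 and 0.85 and 0.48 at 48 h. Its sex difference was -4.07 ± 0.53 (adjusted p = 0.00078).

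Targets of NRF2, the factor that answers oxidative stress, rose in 8 of 27 cases and fell in none, with a median of 0.24. These counts stand beside 6.86% of all genes that rose and 5.9% that fell. In all 8 targets that rose the 48 h arrays lay above the 0 h arrays in each sex, a pattern seen in 5.23% of all genes. Osgin1, an oxidative stress response gene, was at 7.25 and 6.43 in the 0 h males, 5.29 and 6.16 in the 0 h females, 7.8 and 7.57 in the 48 h males and 6.86 and 6.86 in the 48 h females, and it rose by 0.99 ± 0.21 (SE) on the log2 scale, 1.98-fold (adjusted p = 0.0098). Nqo1, a quinone reductase, had levels of -1.24 and -1.78 in males and 0.23 and 0.56 in females at 0 h, against -0.57 and -0.51 and 0.79 and 0.78 at 48 h, and it rose by 0.68 ± 0.15 (SE) on the log2 scale, 1.6-fold (adjusted p = 0.013). Tkt, transketolase of the pentose phosphate pathway, rose by 0.48 on the log2 scale (adjusted p = 0.0041). After normexp correction, quantile normalization or median scaling 5 NRF2 targets rose. With slide as a random block 4 rose, and with sex left out of the fit 2.

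Lists of lipid, bile acid and glucose metabolism were also counted. Over all genes tested 6.86% rose and 5.9% fell on average, and the counts here stand beside these shares. Of 24 genes of fatty acid synthesis 3 rose. Fasn, fatty acid synthase, had levels of 1.44 and 0.33 in males and 1.62 and 1.03 in females at 0 h, against 1.48 and 1.04 and 2.83 and 2.35 at 48 h, and it rose by 0.82 ± 0.22 (SE) on the log2 scale, 1.77-fold (adjusted p = 0.03). Its male arrays overlapped, and the call was lost in 8 of 20 alternatives. Pklr, liver pyruvate kinase, rose by 0.44 on the log2 scale (adjusted p = 0.017), and Agpat2, an acyltransferase of lipid assembly, rose by 0.44 on the log2 scale (adjusted p = 0.003). The change of Pklr did not pass without male 1 at 0 h, at 0.4 (adjusted p = 0.05). Of 28 bile acid genes 3 rose. Slc51b, a chain of the basolateral bile acid exporter, was at -0.75 and -1.96 in the 0 h males, -1.76 and -2.78 in the 0 h females, -0.69 and -0.51 in the 48 h males and -0.2 and -0.71 in the 48 h females, and it rose by 1.29 ± 0.25 (SE) on the log2 scale, 2.44-fold (adjusted p = 0.0071). Fgfr4, the receptor of the gut hormone that represses bile acid synthesis, rose by 0.37 on the log2 scale (adjusted p = 0.0031), and Hsd3b7, an enzyme of that synthesis, rose by 0.3 on the log2 scale (adjusted p = 0.021). The call of Hsd3b7 was lost in 11 of 20 alternatives, and without male 1 at 0 h its change was 0.25 (adjusted p = 0.062).

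Other metabolic lists held 1 to 3 passing members. Of 38 PPARA targets 1 fell, of 48 xenobiotic genes 1 rose and of 30 cholesterol genes 2 rose and 1 fell. Of 29 gluconeogenesis and glycogen genes 1 rose and 2 fell, the latter Gys2 and Pck1, the enzyme that commits to glucose synthesis, which fell by 0.41 on the log2 scale (adjusted p = 0.041). Pck1 did not pass without male 1 at 0 h. Of 32 genes of the unfolded protein response 3 rose, and 5 without male 1 at 0 h. Of 18 heat shock genes 1 rose and 2 fell, among them Hsph1, a large heat shock protein, which fell by 0.72 on the log2 scale (adjusted p = 0.015). Male-biased (29) and female-biased (33) liver genes had 2 and 1 members higher and none lower. Without male 1 at 0 h the PPARA targets had 2 lower, the xenobiotic genes none higher and 1 lower, the glucose genes none higher and 1 lower, the heat shock genes none higher and 2 lower, and the male-biased genes 3 higher and 1 lower.

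Immediate early genes, which answer growth signals within minutes, rose in 5 of 28 cases, against 6.86% of all genes, with a median of 0.01. Dusp6, a phosphatase of ERK signalling, had levels of 3.38 and 3.18 in males and 2.75 and 2.96 in females at 0 h, against 3.93 and 3.53 and 4.21 and 4.27 at 48 h, and it rose by 0.92 ± 0.11 (SE) on the log2 scale, 1.89-fold (adjusted p = 0.00044). Outside that list Id3, an inhibitor of basic helix-loop-helix factors, had levels of 3.92 and 2.57 in the 0 h males, 3.08 and 2.82 in the 0 h females, 4.64 and 4.94 in the 48 h males and 5.58 and 4.63 in the 48 h females. All 48 h arrays of Id3 were above all 0 h arrays, and it rose by 1.85 ± 0.3 (SE) on the log2 scale, 3.6-fold (adjusted p = 0.0025). Gadd45g, a stress-induced relative of Gadd45a from the glucocorticoid list, had levels of 4.27 and 3.7 in males and 1.48 and 1.93 in females at 0 h, against 5.19 and 4.39 and 6.41 and 5.28 at 48 h. It rose by 2.47 on the log2 scale (adjusted p = 0.013), by 0.8 (adjusted p = 0.52) in males and 4.14 (adjusted p = 0.0065) in females, with a sex difference of -3.34 (adjusted p = 0.072).

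Further genes had large changes. Ly6a, the surface protein Sca-1, was at 3.74 and 2.9 in the 0 h males, 2.21 and 1.48 in the 0 h females, 5.81 and 5.29 in the 48 h males and 2.96 and 3.18 in the 48 h females. It rose in each sex, by 2.23 in males and 1.22 in females, and on average it rose by 1.73 ± 0.22 (SE) on the log2 scale, 3.31-fold (adjusted p = 0.00066). Bcl6, a repressor with male-biased expression in liver, was at 3.18 and 2.98 in the 0 h males, 2.72 and 3.8 in the 0 h females, 5.56 and 5.77 in the 48 h males and 3.9 and 3.89 in the 48 h females. The 48 h males stood above all other arrays, and it rose by 1.61 ± 0.36 (SE) on the log2 scale, 3.05-fold (adjusted p = 0.013), by 2.58 (adjusted p = 0.0073) in males against 0.64 (adjusted p = 0.49) in females. Acnat2, an acyl transferase of peroxisomes, was at 2.56 and -0.12 in the 0 h males, 3.77 and 3.85 in the 0 h females, 3.72 and 4.33 in the 48 h males and 4.77 and 4.41 in the 48 h females, with male 2 at 0 h far below the rest. It rose by 1.79 ± 0.39 (SE) on the log2 scale, 3.46-fold (adjusted p = 0.011). Of 22 stellate cell and fibroblast markers 2 rose and 4 fell, against 6.86% and 5.9% of all genes. Vim, vimentin, was among those that fell, by 0.58 on the log2 scale (adjusted p = 0.0058). Of these markers 1 fell without male 1 at 0 h, and none under median scaling.

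Dim genes made up part of the falls. Vmn2r10, a vomeronasal receptor gene, was at -1.98 and -2.9 in the 0 h males, -2.91 and -2.86 in the 0 h females, -5.19 and -5.41 in the 48 h males and -5.22 and -5.25 in the 48 h females. No 48 h array was well above background, and it was at least 1.59-fold lower, with a fitted change of -2.6 ± 0.29 (adjusted p = 0.00037). Epgn, an epidermal growth factor family ligand, was at least 2.05-fold lower. In both genes male 1 at 0 h was the highest array. Of 2869 genes named only by genome coordinates 272 fell (9.48%) and 42 rose. Of 16157 probes so named, 28% to 30.2% were well above background at 0 h and 20% to 25% at 48 h. The part of that shift in these falls was not tested.

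Between 24 h and 48 h few genes passed. Of 23115 genes 137 were higher at 48 h than at 24 h (0.593%) and 229 lower (0.991%). This comparison shares the 48 h arrays with the one against 0 h, so values are set side by side only. After scaling on the array median 53.2% of these calls were higher, against 37.4% as reported. None of the 53 p53 targets passed in either direction, which is near the share of 1.58% over all genes. Cdkn1a changed by -0.03 (adjusted p = 0.98), Phlda3 by 0.07 (adjusted p = 0.93) and Mdm2 by -0.12 (adjusted p = 0.54). At an unadjusted p under 0.05, 3782 of all genes passed.

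Of the 53 interferon-stimulated genes 20 were lower at 48 h than at 24 h and none higher, with a median of -0.48. Isg15 had stood at 6.44 and 6.37 in males and 6.8 and 6.79 in females at 24 h and changed by -1.71 (adjusted p = 0.0054). Irf7, at 2.43 and 2.72 in males and 2.63 and 2.47 in females at 24 h, changed by -0.93 (adjusted p = 0.031). Hbb-bt changed by -4.73 (adjusted p = 5.6e-06) and Hba-a1 by -3.35 (adjusted p = 6.6e-06) between the same times. Of the cell-division genes Ccnb1 alone passed among 33, at -1.31 (adjusted p = 0.024). Ccnd1 was higher than at 24 h by 1.19 (adjusted p = 0.024). Of 24 genes of fatty acid synthesis 7 were higher than at 24 h and none lower, Fasn by 1.47 (adjusted p = 0.0078), Pklr by 0.69 (adjusted p = 0.0079). Bcl6 and Slc51b were higher as well, by 1.76 (adjusted p = 0.03) and 1.18 (adjusted p = 0.035).

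The 48 h change in adults was set against that in 1-week-old infants, whose liver still makes blood and whose hepatocytes still divide. It lay above the infant change for 1541 genes (6.67%) and below it for 2775 (12%). After median scaling 77.6% of these calls lay above, against 35.7% as reported. Of the p53 targets 7 lay above and 8 below. Phlda3 changed by 3.12 in adults and 2.64 in infants, and the difference, adult minus infant, was 0.48 (adjusted p = 0.5). Zmat3 changed by 0.49 in adults and 1.8 in infants, a difference of -1.3 (adjusted p = 1e-05). Ccng1 changed by 1.06 in adults and 1.78 in infants, a difference of -0.72 (adjusted p = 0.011). These differences share the adult arrays with the values above.

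Cell-division genes differed by age in 1 direction. Of 33 the adult change lay below the infant change in 22 and above it in none. Prc1 changed by -2.77 in adults and 0.22 in infants, a difference of -2.99 (adjusted p = 0.0028). Ccnb2 changed by -1.52 in adults and 0.43 in infants, a difference of -1.95 (adjusted p = 0.00057). Of 26 red-cell markers 20 lay above the infant change and 4 below. On the adult arrays behind this change, 10 of the 26 were never well above background. Their adult change is therefore not measured, and the 20 may include them, so that count is not a measure of an age difference in these markers. Among the 4 below, Hba-a2 changed by -4.39 in adults and -1.75 in infants, a difference of -2.64 (adjusted p = 2e-04). Hamp changed by 1.11 in adults and 6.14 in infants, a difference of -5.02 (adjusted p = 3.7e-06). Vpreb1 rose in adults by 0.65 and changed by -4.19 in infants, a difference of 4.84 (adjusted p = 1.5e-09).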

How the data were processed

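RNA was extracted with an AllPrep kit and hybridised 1 sample per array to Agilent 1-colour mouse arrays, per the labels' protocols. The deposited intensity values are Agilent's processed signal, made with Feature Extraction 10.5.1.1 per the file headers, while the submitters' processing notes give version 11.5.1. The authors' deposited table of log2 values, whose scale and centring are not stated and whose array medians run from -0.16 to 0.18, served only as an alternative. Control spots and outliers were left out, and no spot was saturated. Each log2 signal was reduced by the 75th percentile of its array. Probes well above background on at least 4 arrays of the 24 were kept, with the brightest probe for each gene. Names came from RefSeq for 28026 of 29796 accession probes (94.1%) and otherwise from the files. The groups of age, time and sex were fitted with limma 3.58.1 in R 4.3.3, with 12 residual and 1.88 prior degrees of freedom and Benjamini-Hochberg adjustment over 23115 genes. An average change is the mean of the male and female changes.

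On simulated data for the adult comparison of 48 h with 0 h, over 23115 genes, the fit found 41.8% of 1.5-fold, 71.6% of 2-fold and 98.5% of 4-fold changes. The p-values measure the spread between these arrays, and their number limits the precision. Members and lists were chosen with earlier results of these data known. Genes were named from a fixed anchor list, the p53 and clock lists, the 12 largest passing rises and falls without overlap in either sex whose higher group was entirely well above background, up to 6 such members and 3 passing sex differences per list, and the 8 largest passing sex differences each way. The genes described are a selection of these, some are not reported here, and a gene whose other probes moved the opposite way is given with those probes. Alternatives changed the background correction, scaling, filter, probe choice, arrays in the fit, sex term, slide and replicate block, and left out each array in turn. The numbers in the sample names do not pair the samples, since same-number deviations correlated at 0.0805 in males and 0.0581 in females. Promoter windows came from RefSeq (GRCm38.p6).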

Additional observations from a re-analysis of the deposited data

Results flagged for a closer look

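The change at 48 h differed between males and females, or between adults and infants, by limma's test of the difference for the genes below. In males slide and time cannot be told apart, and these tests share arrays with the average changes.

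Among p53 targets the male change minus the female change was -4.52 for Cdkn1a, -1.35 for Ddias, -0.62 for Mdm2, 1.57 for Gadd45a, -1.37 for Trp53inp1, 0.84 for Ppm1d and -1.24 for Ddit4l. The adult change minus the infant change was 2.05 for Cdkn1a, 1.01 for Ddias, -0.72 for Ccng1, 0.40 for Mdm2, -1.30 for Zmat3, 1.20 for Gadd45a, -0.93 for Sfn, -1.78 for Ckap2 and 0.85 for Btg2. The second, dimmer probe of Cdkn1a gave 0.75 for the sexes and -1.52 for the ages, both of opposite sign. The differences between the sexes for Mdm2 and Trp53inp1 did not pass without male 1 at 0 h.

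Among red-cell transcripts the sexes differed for Hba-a2 by 1.60, which did not pass without male 1 at 0 h. Adults minus infants gave -1.99 for Hbb-bt, -1.44 for Hbb-b2, -1.71 for Hbb-b1, -1.77 for Hba-a1, -2.64 for Hba-a2, 0.96 for Alas2 and 6.72 for Slc4a1. Among lymphocyte and granulocyte transcripts males minus females gave 3.02 for Ms4a1, 4.27 for Fcmr, 1.87 for Cd79b and 2.05 for Ccr7. For Ms4a1, Fcmr, Top2a and Per3 only the 0 h females were well above background, for Ccr7 and Cenpe no 48 h array was, and for Ccnb1 no 48 h female array was. Their differences are fitted values that rest in part on signals not well above background and do not measure the size of a difference. The same holds between the ages for Ms4a1, Ccr7, Ckap2, Prc1, Ccna2, Cenpe, Ccnb1, Vmn2r10, Epgn and Slc4a1, where the 48 h arrays of at least 1 adult sex were not well above background. Adults minus infants gave 1.37 for Ms4a1, 1.44 for Cd79b, 4.84 for Vpreb1, -1.49 for Ccr7, 1.96 for Elane and, for the macrophage factor Spic, 0.73.

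Among cell-division genes males minus females gave 2.39 for Cenpe, 3.45 for Ccnb1, 1.34 for Ccnb2, 3.40 for Top2a, 3.18 for Cdc20 and 3.48 for Ccne1. Adults minus infants gave -2.99 for Prc1, -2.49 for Ccna2, -2.02 for Cenpe, -1.36 for Mki67, -2.97 for Ccnb1, -1.95 for Ccnb2, -1.82 for Cdk1 and -2.49 for Cdc20.

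Among interferon and acute phase genes males minus females gave -1.19 for Cmpk2, -3.98 for Saa1 and -3.50 for Saa2, and adults minus infants gave -5.02 for Hamp. The difference for Cmpk2 did not pass without male 1 at 0 h.

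Among clock genes males minus females gave -3.40 for Arntl, 3.13 for Per2, 4.64 for Per3, 1.34 for Cry2, 2.66 for Nr1d1, 1.74 for Nr1d2, 6.65 for Dbp, 2.23 for Tef, -1.12 for Nfil3, 3.64 for Wee1, 5.67 for Usp2 and -1.51 for Tsc22d3. Adults minus infants gave 1.05 for Arntl, -0.35 for Cry2, -1.52 for Nr1d1, -1.21 for Nr1d2, -1.73 for Dbp, -0.79 for Tef, -1.53 for Wee1, -2.30 for Usp2 and -1.04 for Tsc22d3.

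Among the other genes males minus females gave 3.62 for Cyp7a1, -2.55 for G6pc, 1.5 for Gys2, -0.94 for Dusp6 and -4.07 for Slc25a30. The difference for Dusp6 did not pass without male 1 at 0 h. Adults minus infants gave 0.67 for Tkt, -1.32 for Hsph1, 2.78 for Gadd45g, 1.29 for Id3, 0.81 for Dusp6, -0.49 for Vim, -3.53 for Vmn2r10, -2.54 for Epgn and 1.14 for Slc25a30.

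A single array stood apart from the other 3 of its group, by Dixon's criterion, for 10 genes, which chance does for about 1 in 20 groups. Each group pools 2 males and 2 females, and many genes were looked at, so these arrays cannot be told apart from chance. At 0 h these were male 1 for Isg15 at 5.53, Vmn2r10 at -1.98 and Epgn at -1.08, and female 2 for Xrcc5 at 1.98. At 48 h they were male 1 for Ephx1 at 9.06 and Cdk1 at -4.78, male 2 for Saa2 at 9.82, female 1 for C1qa at 3.17 and Spic at -0.04, and female 2 for Tap1 at 0.55.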

How the results depend on the processing

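The counts of passing genes depended on the arrays in the fit, the scaling and the sex term. With the 8 arrays, or the other groups compared, fitted alone, the average comparison gave 19 genes against 2948, males 10 against 3275, females 51 against 1791, the sex difference 13 against 2429, 48 h against 24 h 21 against 366 and the age difference 2860 against 4316. Median scaling gave 1438, 317, 520, 231, 154 and 1516 in that order. Without a filter on dim probes the first 5 counts were 1664, 1702, 1026, 1242 and 205. Without a sex term the average comparison gave 201, the 24 h comparison 75 and the age difference 1242. Normexp correction gave 1815 on average and 2032 in males, and quantile normalization 1842 and 1695. With slide as a fixed term 1846 genes passed on average and 212 against 24 h, and as a random block 796 and 181. With the replicate block 3147 passed on average and 798 against 24 h, and the block moved the other counts by less than 1.5 times. Leaving out 1 array at a time gave 1659 to 2502 on average, 1539 to 3046 in males, 558 to 2107 in females, 1086 to 2407 for the sex difference, 125 to 606 against 24 h and 3306 to 4626 for the age difference; the lone array left in a pair is then assumed to vary like the others. The authors' deposited table, a filter on the 8 arrays and the mean over probes stayed within 1.5 times of each count.

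Of 150 results on single genes, 13 of the 135 that passed did so in every setting. Of 97 average changes that passed, 60 passed in each of the 8 fits that left out 1 adult array at 0 h or 48 h. Over all settings 2245 of 2858 values kept direction and side of the threshold, 572 lost the call, 21 gained it and 19 moved. The change of Tsc22d3 turned from -0.66 to 0.24 with slide as a fixed term, a fit that cannot tell a slide effect from the male change. A fit with scan time as a block was not run, since scan and slide coincide. Genes not well above background have only bounds, which limits the lymphocyte and cell-division results most.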
